A study of Mus musculus with 10 samples.

Results

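The loci of 7 genes that set or read out the macrophage fate were followed in Hi-C loop lists from an IL-4 priming model: Spi1, Cebpa, Cebpb, Runx1, Maf, Zeb2 and Csf1r. A loop was counted for a gene when at least 1 of its 10 kb anchor bins overlapped the 100 kb on either side of the gene's transcription start site (TSS; GENCODE M21, GRCm38). By this rule 269 of the 53424 loops in M0[CTR], 318 of 58260 in M2[IL-4], 342 of 67728 in M2p[pIL-4], 314 of 55012 in IFNG and 369 of 67000 in pIL-4 + IFNG lay near these 7 of the 21728 protein-coding genes examined. Hi-C reads out which stretches of the genome touch each other by ligating neighbouring DNA ends, and each line of a list gives a pair of bins called as a loop together with the number of contacts read between them.

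All cells were macrophages grown from bone marrow of wild-type female C57BL/6 mice (2 to 3 months old) with M-CSF (20 ng/ml), so that all groups had met the ligand of Csf1r, and treatments began on day 6 of differentiation. M0[CTR] cells were left untreated, M2[IL-4] cells had IL-4 (20 ng/ml, 24 h), and M2p[pIL-4] cells had the same IL-4 exposure, a wash and 24 h of rest. IFNG cells had IFNG (20 ng/ml, 3 h) without priming, and pIL-4 + IFNG cells had it after IL-4, wash and rest. Whether M0[CTR] cells were kept in culture as long as the rested cells is not given in the sources used here. Each group had 2 replicates but 1 loop list, so every value below is a pooled value with no SD and no replicate check, and intervals cover counting error only. The lists had a median of 32 contacts per loop and median spans of 160 to 180 kb, and since they hold no expression the macrophage label could not be checked against marker genes.

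Macrophages arise from myeloid progenitors under a small set of transcription factors. PU.1, the ETS factor encoded by Spi1, opens myeloid enhancers together with C/EBPα (Cebpa), C/EBPβ (Cebpb) and RUNX1, and these factors drive Csf1r, the receptor tyrosine kinase through which M-CSF keeps macrophages alive. c-MAF (Maf) and ZEB2 act later, in mature and tissue macrophages, where c-MAF restrains self-renewal and ZEB2 maintains tissue identity. Many loops seen by Hi-C join a pair of CTCF sites that point towards each other, because CTCF halts the loop-extruding cohesin complex in an orientation-dependent way.

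The letters that bear on the loops described below are shown here. CTCF matches were searched on both strands with a 14-base consensus allowing at most 1 mismatch, and 21.4% of all bins held at least 1 such match, so that a match is a description of the sequence and not a bound site. The first is the 250 bases before the Cebpb start site (RefSeq, GRCm38.p6; chr2:167688665-167688914, plus strand, in an intron of Tmem189), whose capitals mark a match without mismatch at chr2:167688669-167688682, which starts at -246 bases from the TSS. The 10 kb TSS bin held 3 matches in all, and that at chr2:167680126-167680139 was on the minus strand, like those of the partner bins below. Such an exact match was found in 0.307% of the 32851 promoters in the table (101 of them).
Cebpb promoter: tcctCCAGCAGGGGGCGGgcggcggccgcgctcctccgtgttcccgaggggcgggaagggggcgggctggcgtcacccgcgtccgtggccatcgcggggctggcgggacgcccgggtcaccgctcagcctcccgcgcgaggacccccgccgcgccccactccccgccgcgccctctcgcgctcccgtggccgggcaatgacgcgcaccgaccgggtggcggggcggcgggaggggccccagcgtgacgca
The next pair comes from the bins that the Cebpb bin was joined to most strongly. Both lie outside annotated genes, and the capitals mark matches with 1 mismatch on the minus strand, at chr2:167894981-167894994 and chr2:167888089-167888102, facing the match of the promoter.
Cebpb partner bin, strongest: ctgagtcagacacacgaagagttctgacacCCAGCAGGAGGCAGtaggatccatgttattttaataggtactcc
Cebpb partner bin, the one before it: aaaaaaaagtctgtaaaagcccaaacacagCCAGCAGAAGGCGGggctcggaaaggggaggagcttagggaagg
The Maf bin was joined to an intron of Wwox that holds an exact match on the plus strand (chr8:115095733-115095746). It points towards Maf, whose own TSS bin held 0 matches.
Maf partner bin in Wwox: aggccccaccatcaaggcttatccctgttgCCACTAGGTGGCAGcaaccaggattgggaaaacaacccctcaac
The busiest bins near Spi1 and Cebpa held matches with 1 mismatch on the minus strand, in an intron of Psmc3 (chr2:91061284-91061297) and outside annotated genes (chr7:35172099-35172112), and the latter's second strongest partner bin held a plus-strand match in an intron of Pepd (chr7:35023306-35023319). Its strongest partner bin, next to that one, held 0 matches. The Spi1 match points upstream, away from the partners of its bin that were called in all 5 lists.
Spi1 busiest bin: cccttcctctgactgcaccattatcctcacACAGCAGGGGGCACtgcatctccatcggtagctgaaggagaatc
Cebpa busiest bin: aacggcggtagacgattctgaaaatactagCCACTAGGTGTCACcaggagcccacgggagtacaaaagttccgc
Cebpa partner bin in Pepd: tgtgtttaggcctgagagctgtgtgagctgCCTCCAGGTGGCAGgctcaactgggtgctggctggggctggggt
Each flanked match is printed with 30 bases on either side, 5′ to 3′ on the strand of the match, with the match in capitals.

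Values of the 5 lists are given in the order M0[CTR], M2[IL-4], M2p[pIL-4], IFNG and pIL-4 + IFNG. A bin pair that was not called has no count in that list, which is not the same as no contact. The 7 loci differed widely in how many loops they had. Cebpb stood highest in every list and Zeb2 lowest, level with Runx1 in M2[IL-4], with 83, 96, 112, 92 and 124 loops against 14, 27, 21, 12 and 24. The median protein-coding gene had 6 to 8 loops, so that each of the 7 genes lay above the median in every list.

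**Figure D1:**
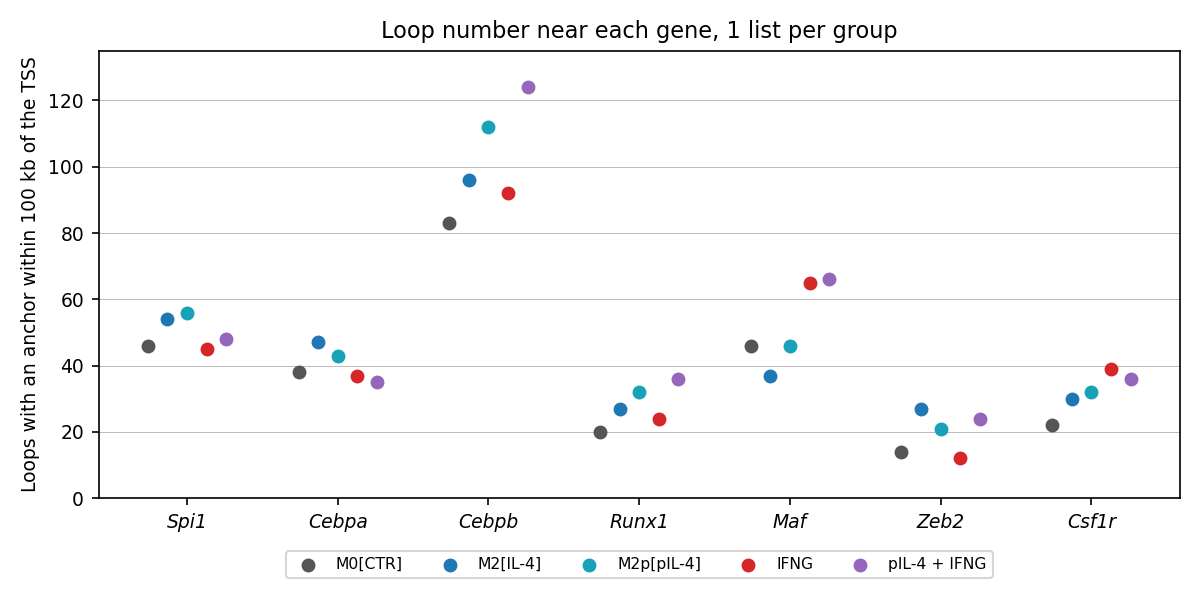
Number of loops with an anchor within 100 kb of the TSS (vertical axis) for each of the 7 genes, with 1 point per loop list. Cebpb has the most loops in all 5 lists (83 to 124), and Zeb2 the fewest (12 to 27), level with Runx1 in M2[IL-4].

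Spi1 (chr2:91082390-91115756, plus strand) had 46, 54, 56, 45 and 48 loops, more than 88.2 to 93.4% of all genes. The loops were short, with median spans of 50 to 70 kb, and they held 3459 to 3902 contacts in all. Few of them used the start site itself. The TSS bin had 1, 1, 2, 2 and 2 loops, all with the bins next to it. The busiest bin of the locus was chr2:91060001-91070000, at -22.4 to -12.4 kb from the TSS, with 11, 13, 14, 11 and 12 loops. This bin covers the position of the upstream regulatory element at -14 kb, the best known enhancer of Spi1, and also parts of Psmc3 and Slc39a13. It had more loops than 98.2 to 99.1% of the bins that anchored a loop in the same list. None of its 17 bin pairs was with the TSS bin, and 5 of the 17 were called in all 5 lists. The strongest bin pair near Spi1 called in all 5 lists joined chr2:91070001-91080000 in Slc39a13 to chr2:91090001-91100000 inside Spi1, with 146, 150, 177, 163 and 145 contacts. Its mean strength was 1.72, where strength is the contact count divided by the median count of loops of the same span in the same list.

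Cebpa (chr7:35119293-35121928, plus strand) had 38, 47, 43, 37 and 35 loops with 1564 to 2096 contacts in all. Its busiest bin lay outside annotated genes, 50.7 to 60.7 kb downstream of the TSS (chr7:35170001-35180000), and had 11, 13, 12, 11 and 8 loops. That bin was joined across the gene to Pepd, which encodes a dipeptidase. The pair with chr7:35030001-35040000 had 77, 77, 71, 83 and 63 contacts (mean strength 2.17), and the pair with the adjacent chr7:35020001-35030000 had 72, 67, 64, 59 and 94 contacts (mean strength 2.15). The lowest and the highest list in the second of these pairs were both IFNG lists, without and with priming. The bin of the known myeloid enhancer at 37 kb downstream had 0, 0, 4, 0 and 2 loops and none with the TSS bin. The TSS bin of Cebpa was called with the TSS bin of Cebpg, its neighbour of the same C/EBP family, in all 5 lists, at 54, 55, 42, 59 and 52 contacts. This pair was of average strength for its span (mean strength 0.999).

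Cebpb (chr2:167688915-167690418, plus strand) had more loops than 98.8 to 99.6% of genes. Its TSS bin, which also holds the TSS of Tmem189, had 15, 16, 17, 18 and 17 loops over 27 bin pairs. Of the 27 partners, 26 lay downstream, and 8 bin pairs were called in all 5 lists. By contrast, 60.3 to 65.2% of all genes had no loop at the TSS bin. The highest count was with chr2:167890001-167900000, 201.1 to 211.1 kb downstream and outside annotated genes, at 189, 174, 191, 229 and 223 contacts. This bin pair had a mean strength of 7.35 and ranked 1 among the 14063 bin pairs called in all 5 lists, ahead of a pair on chromosome 10 with 5.46. The bin before it, chr2:167880001-167890000, had 119, 103, 108, 104 and 119 contacts with the TSS bin (mean strength 3.87, rank 12). The profile of the Cebpb bin was highest at this place. The bins from 91.1 to 191.1 kb had 23 to 63 contacts where called, and the bin from 221.1 to 231.1 kb had 35, 35, 22, 38 and 27. A smaller rise followed at 231.1 to 241.1 kb, with 46, 57, 47, 47 and 55 contacts (mean strength 1.94).

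**Figure D2:**
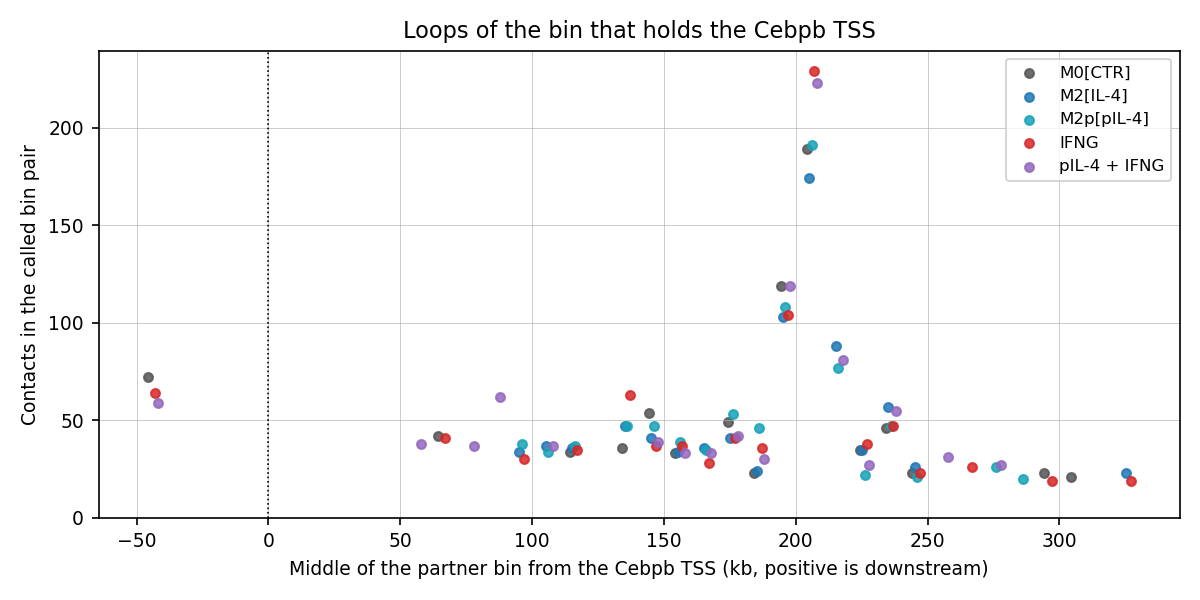
Contacts (vertical axis) of each called bin pair that has the Cebpb TSS bin as an anchor, against the distance of the partner bin's middle from the TSS in kb, with 1 colour per list and points of a partner bin set slightly apart. Over the 5 lists the counts are 103 to 119 at 191.1 to 201.1 kb and 174 to 229 at 201.1 to 211.1 kb downstream, and at most 88 at any other partner bin.

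At the Cebpb pair both lists of IFNG-treated cells (229 and 223 contacts) lay above the other three (174 to 191). The 95% Poisson intervals were 163 to 218 in M0[CTR] and 200.3 to 260.7 in IFNG, which overlap. Over all 14063 bin pairs called in the 5 lists, with counts scaled by the lists' totals over these pairs, both IFNG lists were above the others in 11.2% and below them in 10.8%. Among the 74 bin pairs near the 7 genes these orders held in 10 (13.5%) and 4 (5.41%). Near Cebpb were 7 of the 10 and all of the 4 but a single pair near Cebpa, and Cebpb also held 40 of the 74. The TSS bin of Cebpb held 24 GATC restriction sites, more than 44.8% of bins, and the partner 30, more than 77.9%. The GC content of the TSS bin, at 56.4%, was higher than in 99.9% of bins, and the part of base composition in the count was not tested.

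Runx1 (chr16:92601466-92826149, minus strand, from its distal start site) had 20, 27, 32, 24 and 36 loops, with 429, 909, 1196, 587 and 1124 contacts in all. The loops were long, with median spans of 320 to 515 kb. The TSS bin had 2, 3, 3, 3 and 5 loops, and 7 of its 8 bin pairs led upstream, away from the gene. Its strongest pair reached into Runx1 itself, at chr16:92690001-92700000, 126.1 to 136.1 kb downstream, with 37, 38 and 44 contacts in the first 3 lists and 34 in pIL-4 + IFNG, and it was not called in IFNG. The busiest bin connected to the locus lay in an intergenic stretch at -473.9 to -463.9 kb from the TSS (chr16:93290001-93300000), with 8, 4, 4, 6 and 9 loops. The bin of the intronic haematopoietic enhancer 23 kb downstream of the start site had 1, 2, 2, 2 and 0 loops and none with the TSS bin.

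Maf (chr8:115682942-115707794, minus strand) has no other protein-coding start site in its window and had 46, 37, 46, 65 and 66 loops with median spans of 540 to 600 kb. Its TSS bin had 11, 9, 12, 13 and 12 loops over 31 bin pairs, all of which led downstream, across the gene and towards Wwox, which encodes an oxidoreductase. The pair with chr8:115420001-115430000, 277.8 to 287.8 kb downstream, had 33, 29, 36, 52 and 47 contacts (mean strength 1.69), with both IFNG lists above the others. The pair with the Wwox bin chr8:115090001-115100000, 607.8 to 617.8 kb downstream, had 17, 30, 22, 17 and 25 contacts (mean strength 1.57), and here the 3 lists of IL-4-exposed cells lay above both others. Over all 14063 bin pairs, again scaled, the 3 lists of IL-4-exposed cells were all above the 2 others in 10.1% and all below in 9.09%, against 6 (8.11%) and 5 (6.76%) of the 74 near the 7 genes. The bin just upstream of the TSS bin, chr8:115710001-115720000, had 8, 12, 14, 19 and 18 loops, in counts not scaled by list length.

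Zeb2 (chr2:44983632-45117395, minus strand) had few loops, but the longest reach of the 7 TSS bins. Its TSS bin had 6, 8, 9, 7 and 5 loops, and all 14 bin pairs led upstream. The strongest pair was with chr2:45260001-45270000, at -152.6 to -142.6 kb, with 51, 39, 46, 42 and 40 contacts (mean strength 1.31). The pair with the bin of the far upstream enhancer, a few bins further out, had 39 contacts in M0[CTR], 31 in M2p[pIL-4] and 33 in IFNG, and was not called in the other lists. The bin of that enhancer depends on which of the 17 annotated start sites the distance is taken from. The Zeb2 bin also reached chr2:46440001-46450000, a bin with the long intergenic RNA Gm13470 that lies 1330 kb from the TSS bin, in all 5 lists. That pair had 10, 11, 10, 13 and 9 contacts, with a mean strength of 1.29 and Poisson intervals from 4.12 to 22.2.

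**Figure D3:**
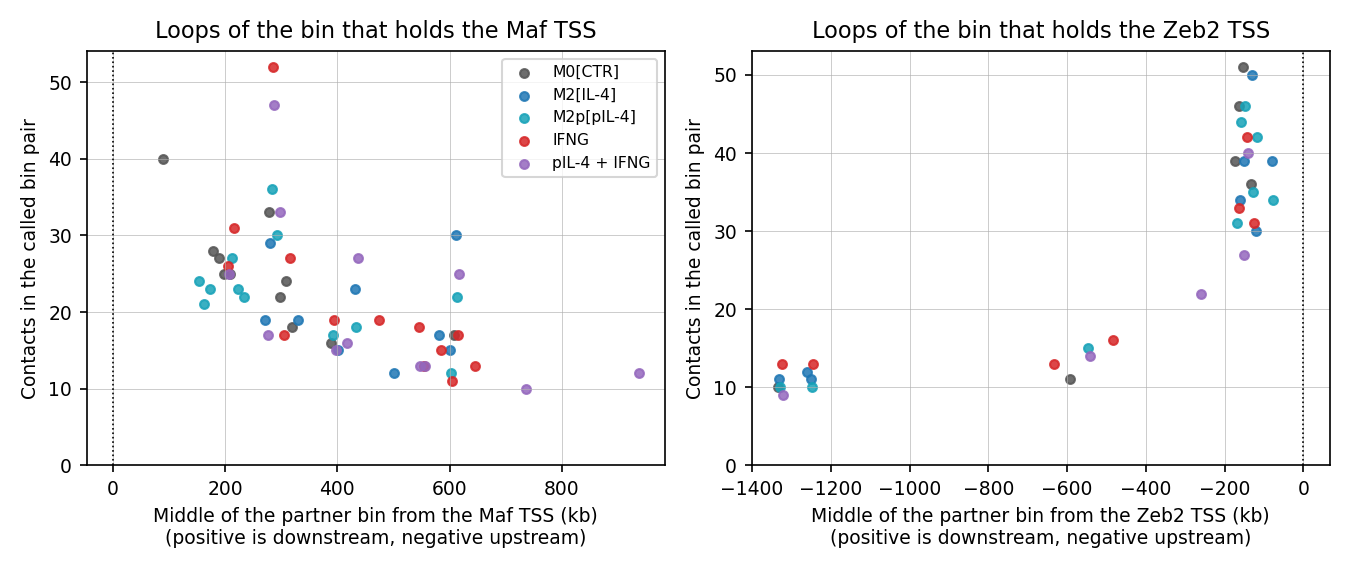
Contacts (vertical axes) of each called bin pair with the TSS bin of Maf (left) or Zeb2 (right) as an anchor, against the distance of the partner bin's middle from the TSS in kb, with 1 colour per list and points of a partner bin set slightly apart. All 31 Maf pairs lie downstream and all 14 Zeb2 pairs upstream, with a distant group up to 1330 kb away for Zeb2.

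Csf1r (chr18:61100598-61132149, plus strand) lies beside Pdgfrb, a receptor gene of the same tyrosine kinase class, whose start site lies in the same window. Csf1r had 22, 30, 32, 39 and 36 loops with 1007, 1556, 1546, 1767 and 1643 contacts in all. Only 2 bin pairs had the TSS bin as an anchor. The pair with chr18:61070001-61080000 in Pdgfrb, at -30.6 to -20.6 kb, had 68, 90 and 71 contacts in the 3 lists without IFNG, and it was not called in either IFNG list. Nearby bins did form called pairs there in these lists, since the pair of that Pdgfrb bin with chr18:61110001-61120000 inside Csf1r had 59, 70, 76, 65 and 70 contacts. How many of all bin pairs were called in the 3 lists without IFNG alone was not counted. Of the 153264 bin pairs, 15326 were called in exactly 3 lists. The strongest pair of the window in all 5 lists joined Camk2a to Pdgfrb (chr18:60980001-60990000 with chr18:61060001-61070000), at 61, 73, 67, 74 and 79 contacts and a mean strength of 1.55.

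How far the same bin pair recurred across lists separated the loci. Of the 197 bin pairs near Cebpb, 40 (20.3%, 95% Wilson interval 15.3 to 26.5) were called in all 5 lists, and near Cebpa 14 of 85 (16.5%, 10.1 to 25.8). For all 153264 bin pairs the share was 9.18%. Spi1 was near this value, with 11 of 126 (8.73%). The share was 2.82% (5 of 177, 1.21 to 6.44) near Maf, 2.94% (2 of 68, 0.81 to 10.1) near Zeb2 and 2.33% (2 of 86, 0.64 to 8.09) near Csf1r. The Zeb2 interval includes the share of all bin pairs. Near Runx1 it was 0 of 102, where 3 counts would give 2.94% and the Wilson interval reaches 3.63%. Overlapping bin pairs of a locus are not independent, and the part of loop span in this difference was not tested. With a tolerance of 25 kb at both anchors, 97.8 to 100% of the M0[CTR] loops near Spi1 had a match in each other list, 92.1 to 100% near Cebpa and 97.6 to 98.8% near Cebpb. Csf1r followed with 90.9 to 95.5%, and Runx1 (80 to 90%), Zeb2 (71.4 to 78.6%) and Maf (63.0 to 82.6%) were lower. The whole M0[CTR] list had 88.0 to 91.1%. Runx1 and Zeb2 rest on only 20 and 14 M0[CTR] loops. The Runx1 interval in M2[IL-4] was 58.4 to 91.9%, and its interval included the whole-list share in every list. The Zeb2 interval included it in M2[IL-4] (52.4 to 92.4%) but not in M2p[pIL-4] (45.4 to 88.3%, against 91.1%). Within 50 kb, Maf had 93.5 to 100% against 94.8 to 96.1% for the whole list, so that it was no longer below it in each comparison. In identical bins the shares were 45.7 to 58.7% near Spi1, 52.6 to 65.8% near Cebpa and 63.9 to 72.3% near Cebpb. They were 31.8 to 40.9% near Csf1r, 23.9 to 34.8% near Maf, 20 to 30% near Runx1 and 35.7 to 57.1% near Zeb2. The whole list had 46.9 to 53.5%. Csf1r thus lay below the whole list in identical bins, and Zeb2 lay above it in M2p[pIL-4] (57.1% against 53.5%).

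**Figure D4:**
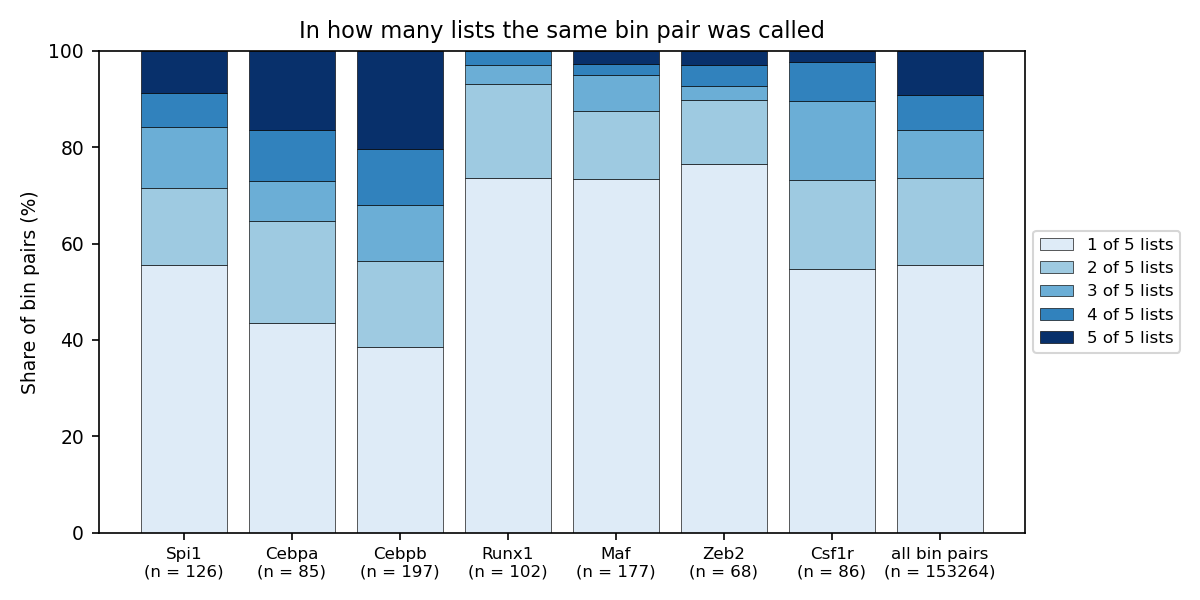
Share of the bin pairs near each gene (vertical axis, %) that were called in 1, 2, 3, 4 or 5 of the 5 lists, with the number of bin pairs under each name and all bin pairs at the right. The part called in all 5 lists is 20.3% near Cebpb and 16.5% near Cebpa, against 9.18% of all bin pairs and 0 of 102 near Runx1.

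To see whether polarization, washout or IFNG moved the loops of these genes, loop numbers were compared between lists as log2 ratios, with a pseudocount of 1 and division by list length, among the 12230 genes with a mean of at least 5 loops. All 7 genes passed this minimum. The comparisons share control lists and are not independent of each other. A ratio was past the fold when it was at least 0.5 in size. In M2[IL-4] against M0[CTR] this was the case for 1 of the 7 genes, where the background over all genes was 22.0%. It was Zeb2, with 27 against 14 loops (log2 ratio 0.78, 95% interval -0.16 to 1.87). In M2p[pIL-4] against M0[CTR] no gene of the 7 passed (background 17.6%). In M2p[pIL-4] against M2[IL-4] it was again 1, Zeb2, with 21 against 27 loops (-0.57, -1.48 to 0.30; background 18.5%). Zeb2 thus had its highest loop number under IL-4 and a lower one after washout, but neither interval excludes 0.

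With IFNG alone, Csf1r was the 1 gene past the fold against M0[CTR], with 39 against 22 loops (0.76, -0.0061 to 1.61; background 23.8%). When IFNG followed priming (pIL-4 + IFNG over M2p[pIL-4]), it was Maf, with 66 against 46 loops (0.53, -0.028 to 1.11; background 18.9%). The Maf ratio to M0[CTR] with IFNG alone was 0.45 (65 against 46 loops). In pIL-4 + IFNG against IFNG it was Zeb2, with 24 against 12 loops (0.66, -0.34 to 1.85; background 17.8%). A count of 0 or 1 in 7 is near these backgrounds and says nothing particular about the 7 genes. Some of these ratios depended on the settings: with 50 kb the Csf1r ratio was 0.24 and Maf was past the fold in its place (0.51), the Maf ratio of primed cells was not with 50 kb or 200 kb, neither was with touching bin pairs merged (Csf1r 0.4997, Maf 0.41), and the Zeb2 ratio after washout was not with either window or without scaling. The Zeb2 ratios in M2[IL-4] against M0[CTR] and in pIL-4 + IFNG against IFNG were past the fold under every alternative tried.

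**Figure D5:**
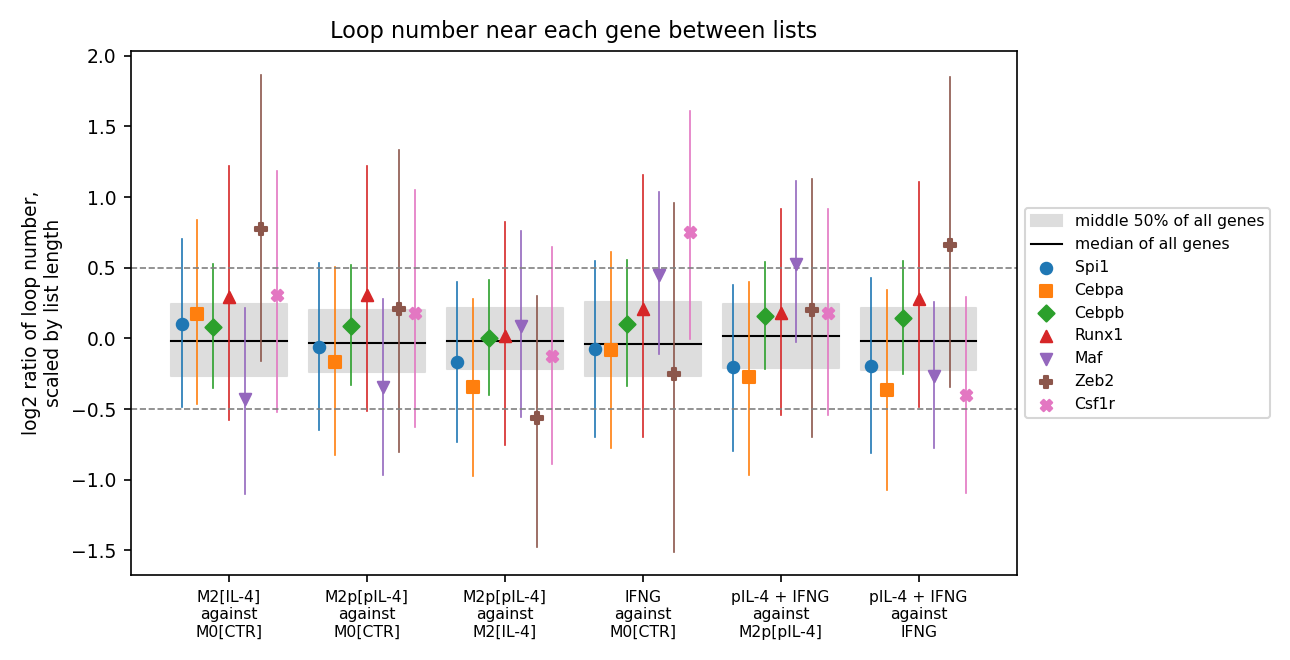
Log2 ratio of loop number, scaled by list length (vertical axis), for each gene in the 6 comparisons, with 95% intervals from the counts as thin lines. The grey boxes are the middle 50% of all 12230 genes, the black lines their median and the dashed lines the fold of 0.5; 5 of the 42 ratios lie beyond the dashed lines, and every one of those 5 has an interval that includes 0.

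The median log2 ratio of the 7 genes was 0.17 in M2[IL-4] against M0[CTR], 0.086 in M2p[pIL-4] against M0[CTR], -0.13 in M2p[pIL-4] against M2[IL-4], 0.10 in IFNG against M0[CTR], 0.18 for pIL-4 + IFNG over M2p[pIL-4] and -0.19 for pIL-4 + IFNG against IFNG. Without scaling, the third and the last of these medians turned to 0.090 and 0.091. The medians of all genes lay between -0.042 and 0.016, and without scaling they rose to 0.31 in M2p[pIL-4] against M0[CTR] and 0.26 in pIL-4 + IFNG against IFNG. Loops per 10000 in the list gave the order across all 5. Maf, Csf1r and Cebpb were higher in both IFNG lists than in the other three (3 of 7, against 15.7% of all genes), and Spi1 was lower (1 of 7, against 14.2%). Without scaling, Maf and Csf1r were higher in both IFNG lists (2 of 7, against 11% of all genes), Cebpb and Spi1 overlapped, and Cebpa was lower in both (1 of 7, against 6.70%). With touching bin pairs merged, the Cebpb ratio for pIL-4 + IFNG over M2p[pIL-4] turned from 0.16 to -0.58. Spi1 was not lower in both IFNG lists with merging, where its ratio of IFNG over M0[CTR] was 0.65. Nor was it with a 50 kb window, where IFNG and M2p[pIL-4] over M0[CTR] had Spi1 ratios of -0.17 and -0.26. The Csf1r order was lost with a 50 kb window, where the ratio of pIL-4 + IFNG over M2p[pIL-4] was -0.25. It was also lost with 200 kb, where that ratio was 0.085 and M2p[pIL-4] over M2[IL-4] was -0.16, which left pIL-4 + IFNG below M2[IL-4]. Maf had 11.8 and 9.85 loops per 10000 with IFNG and 6.35 to 8.61 without. Runx1 and Zeb2 were higher in all 3 lists of IL-4-exposed cells than in the 2 others (2 of 7, against 10.4% of all genes), and none of the 7 was lower in all 3 (background 11.5%). Without scaling, this order held for 4 of 7 (Spi1, Cebpb, Runx1 and Zeb2) against 27.0% of all genes, and the reverse for none, against 0.891%. For Runx1 these were 4.63, 4.73 and 5.37 against 3.74 and 4.36 loops per 10000, and for Zeb2 4.63, 3.10 and 3.58 against 2.62 and 2.18. The Runx1 order was lost with either other window and with every annotated start site, where IFNG lay above M2p[pIL-4]. Over M0[CTR], IFNG and M2p[pIL-4] then had Runx1 ratios of 0.35 and 0.24 with 50 kb and 0.21 and 0.18 with 200 kb. With every start site they were 0.30 and 0.097. It was also lost with touching bin pairs merged and without adjacent bins, where M2[IL-4] lay slightly below IFNG. Over M0[CTR], M2[IL-4] and IFNG had Runx1 ratios of 0.2942 and 0.3001 with merging. Without adjacent bins they were 0.1947 and 0.2033.

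Contact counts were then compared at bin pairs called in all 5 lists, summed per gene, by a two-sided exact binomial test with Benjamini-Hochberg adjustment over 11281 genes. The test compares a pair of pooled libraries and not their conditions. It covered 6 of the 7 genes, as Runx1 had no such bin pair. None of the 6 was called in any of the 6 comparisons. Over all genes the share called was 0% in M2[IL-4] against M0[CTR] (671 genes at an unadjusted exact binomial p under 0.05), 0% in M2p[pIL-4] against M0[CTR] (536), 0% in M2p[pIL-4] against M2[IL-4] (400), 0.151% in IFNG against M0[CTR] (17 genes called), 0.106% for pIL-4 + IFNG over M2p[pIL-4] (12 genes called) and 0% for pIL-4 + IFNG against IFNG (453). Among the 6 genes an unadjusted p under 0.05 occurred for Cebpa alone, in 3 of the comparisons. Its 14 shared bin pairs held 709, 697, 639, 708 and 706 contacts, lowest in M2p[pIL-4]. The log2 ratio was -0.20 against M0[CTR] (exact binomial p = 0.0113, adjusted 0.991) and -0.18 against M2[IL-4] (exact binomial p = 0.0248, adjusted 1), and that of pIL-4 + IFNG over M2p[pIL-4] was 0.16 (exact binomial p = 0.0408, adjusted 0.971). The 40 Cebpb bin pairs held 2472, 2411, 2505, 2628 and 2604 contacts, and the IFNG list over M0[CTR] gave a log2 ratio of 0.047, with a 95% interval of -0.033 to 0.13. For Cebpb and Spi1 these intervals bound narrowly a change between the libraries at the shared bin pairs alone. Those were 40 of 197 bin pairs near Cebpb and 11 of 126 near Spi1, and pairs not called in every list were outside the test. For Spi1 (1017, 1013, 1097, 1086 and 1061 contacts) the IFNG to M0[CTR] interval was -0.071 to 0.18. Zeb2, with 2 bin pairs and 49 to 61 contacts, had an interval of -0.74 to 0.36 in the same comparison, so that a change of moderate size was not detectable at this depth.

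Other genes of the same biology were described from lists. Of 20 related lineage factors, 14 had enough loops, and at most 2 of the 14 were past the fold in any comparison. Id2, an inhibitor of helix-loop-helix factors, had 47 (M2[IL-4]), 60 (M2p[pIL-4]) and 50 (IFNG) loops against 29 in M0[CTR], log2 ratios of 0.55, 0.68 and 0.72. Spic, the ETS factor of red pulp macrophages, had 7 loops in pIL-4 + IFNG against 14 in M2p[pIL-4] (-0.89) and 13 in IFNG (-1.09). Of 11 colony-stimulating factor ligands and receptors, 8 had enough loops, and 2 were past the fold in M2[IL-4] against M0[CTR], both upwards, and again 2 in IFNG against M0[CTR]. Csf1, which encodes the M-CSF ligand of Csf1r, had 32 loops in M2[IL-4] and 15 in M0[CTR] (0.92), 23 after washout, and 24 with IFNG (0.60 against M0[CTR]). Csf3r, the receptor of granulocyte colony-stimulating factor, had 4 loops in M0[CTR], against which the 11 in M2[IL-4], the 13 after washout and the 9 with IFNG gave 1.14, 1.14 and 0.96. Of 10 factors of other blood lineages only 4 had enough loops, with at most 2 past the fold. Of 10 macrophage genes that the lineage factors bind, all 10 had enough loops and at most 1 was past the fold in a comparison. These shares sit beside backgrounds of 17.6 to 23.8%, and the medians of the 4 lists in M2[IL-4] against M0[CTR] were 0.12, 0.069, -0.40 and -0.21.

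For each gene, the genes whose 4 log2 ratios of loop number to M0[CTR] were most like its own were found among those with a window elsewhere. The measure was the root mean square difference over the 4 ratios from 5 lists. For Csf1r the nearest was Acod1, which encodes the itaconate-producing enzyme of activated macrophages, with 23, 30, 32, 38 and 38 loops (difference 0.066), followed by Pus1 (0.070). For Zeb2 they were Kcnh6 (0.077) and Capn12 (0.087), for Maf Serpinb5 (0.064) and Sppl2a (0.078), and for Runx1 Slc48a1 (0.031) and Dgka (0.041). For Cebpb they were H2-DMb2 (0.037) and Stx12 (0.039), for Cebpa Synj1 (0.051) and Ranbp3 (0.052), and for Spi1 Prr15 (0.036) and Ano8 (0.037). With 4 ratios and 12230 genes, small differences of this kind are found for any gene.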

How the data were processed

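Hi-C had been performed on 10 samples in 5 groups of 2 replicates, grouped here by the agent given for each sample. The loop lists were linked to these groups by loop names and sample titles. The submitters' processing notes name FastQC, Bowtie2, HiC-Pro, Juicer, HOMER and mm10. The authors deposited 1 loop list per group, with 10 kb bins and a whole-number contact count per bin pair that was not normalized, 2174945 to 2787117 contacts in all. The authors' methods describe HICCUPS loops at a coarser resolution than these 10 kb bins, so the caller and threshold behind the lists analysed here are not certain. Loops were assigned to GENCODE M21 start sites within 100 kb, and loop numbers were compared as log2 ratios scaled by list length (pseudocount 1, minimum mean of 5 loops, fold 0.5). Ratio intervals were exact binomial (95%), contact intervals exact Poisson and shares Wilson. A planned count model over replicates was not possible with 1 list per group, and contacts were compared by exact binomial tests. Tested on simulated data, M2[IL-4] against M0[CTR], this test called 149 of 200 genes with a 1.5-fold change and 4 of 11081 unchanged genes. The simulated counts were drawn independently per gene from the Poisson model that the test assumes. Differences between libraries beyond counting error, and bin pairs shared between genes, were not part of the simulation. Loops were matched within 25 kb (2 bins). The genes, lists and tests were chosen with earlier results of these data known. Named were the 7 genes, from each list at most the 2 genes with the largest rise or fall per comparison, the 2 most alike genes per gene, and genes that place an anchor. Enhancer positions are background knowledge. Alternatives were windows of 50 and 200 kb, every annotated start site, merging of touching bin pairs, removal of adjacent bins, no scaling, a pseudocount of 0.5, no minimum, bin pairs called in both lists and a match within 50 kb or in identical bins. The orderings across lists were chosen after the data were seen. Scripts ran in Python 3.11.15 with scipy 1.17.1, numpy 2.4.6, pandas 2.3.3 and, to draw figures, matplotlib 3.10.9.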

Additional observations from a re-analysis of the deposited data

Results flagged for a closer look

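For Zeb2, the log2 ratio of loop number with IFNG was -0.25 in unprimed cells (IFNG against M0[CTR], 12 against 14 loops) and 0.20 in primed cells (pIL-4 + IFNG against M2p[pIL-4], 24 against 21 loops). The lists moved in opposite directions, and the difference was not tested, as each group has 1 list. The opposition was lost with touching bin pairs merged, where both ratios were positive (0.25 and 0.63), and with a 200 kb window, where both were negative (-0.48 and -0.12).

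For Csf1r, the log2 ratio of loop number with priming was 0.18 without IFNG (M2p[pIL-4] against M0[CTR], 32 against 22 loops) and -0.40 with IFNG (pIL-4 + IFNG against IFNG, 36 against 39 loops). With touching bin pairs merged both were negative (-0.55 and -0.30). The difference was again not tested, and all 4 of these ratios had intervals that include 0.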

How the results depend on the processing

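No paired analysis was possible because each list merges both replicates of a group, and for the same reason no replicate could be left out. Of 72 recomputed counts of genes past the fold or called by contacts, 59 were the same in number, though not always in gene: in IFNG against M0[CTR] the 1 gene was Maf and not Csf1r with a 50 kb window, and Maf (0.54) was also past the fold with merging. With a 200 kb window, 2 genes were past the fold in M2[IL-4] against M0[CTR], and 0 for M2p[pIL-4] over M2[IL-4] and likewise for pIL-4 + IFNG over M2p[pIL-4]. With a 50 kb window the last 2 of these were also 0. With touching bin pairs merged, 3 were past it in M2p[pIL-4] against M0[CTR], 2 in M2p[pIL-4] against M2[IL-4], 2 in IFNG against M0[CTR], 3 for pIL-4 + IFNG over M2p[pIL-4] and 3 for pIL-4 + IFNG against IFNG. Without scaling, 3 were past it in M2p[pIL-4] against M0[CTR], 0 in M2p[pIL-4] against M2[IL-4] and 2 in pIL-4 + IFNG against IFNG. Of the 336 recomputed ratios of single genes, 330 stayed within the counting interval and 6 did not. The 5 ratios past the fold changed sign under no alternative, but merging turned others and took them past the fold. These were Cebpb in M2p[pIL-4] against M0[CTR] (0.086 to -0.55), for pIL-4 + IFNG over M2p[pIL-4] (0.16 to -0.58) and for pIL-4 + IFNG over IFNG (0.14 to -0.87), Csf1r in M2p[pIL-4] against M0[CTR] (0.18 to -0.55) and Spi1 in IFNG against M0[CTR] (-0.073 to 0.65). The cause was not tested. Of the 64 recomputed match shares, 54 left their interval, 31 of them with matching in the same bins.

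Over all genes, the number past the fold without scaling was 3696 against 2157 in M2p[pIL-4] against M0[CTR] and 3282 against 2175 in pIL-4 + IFNG against IFNG. The share of these genes with the higher loop number moved without scaling from 51.5% to 71.0% in M2[IL-4] against M0[CTR], from 55.2% to 94.6% in M2p[pIL-4] against M0[CTR], from 54.3% to 84.0% in M2p[pIL-4] against M2[IL-4] and from 56.8% to 93.2% in pIL-4 + IFNG against IFNG. With no minimum, 5179 to 6144 of 21728 genes were past it, against 2157 to 2905. For contacts, the 12 genes called for pIL-4 + IFNG over M2p[pIL-4] were 3 over bin pairs called in both lists and 0 with a 200 kb window, and the 0 in M2[IL-4] against M0[CTR] were 2 and 5. The exact binomial test called none of the 6 or 7 genes under any alternative. Zeb2, Maf, Runx1 and Csf1r had 0 to 5 bin pairs in all 5 lists, which limits the contact test there.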
